A study of Lobaria pulmonaria with 11 samples.

Results

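A set of 154 transcripts was chosen from the fungal partner of the tree lungwort lichen Lobaria pulmonaria. Its members stood lower before irradiation and after 2 days of ultraviolet-B (UV-B) than after 7 and 11 days. These are 154 of the 12089 fungal transcripts that passed the filter on low counts (1.27%). They were chosen by their own levels, in CPM (counts scaled to a common library total) after TMM normalization (trimmed mean of M-values, a scaling that sets the bulk of transcripts level between libraries). The lowest CPM of the 5 libraries of days 7 and 11, called late libraries here, had to be at least 1.5 times the highest CPM of the 6 libraries of days 0 and 2, called early libraries. The mean of the late libraries had to be at least 3 CPM. The 100 transcripts with the highest mean at day 0 were left out, as were those whose lowest level in the 8 irradiated libraries was at least 2 times the highest day 0 level. Every difference between a late and an early day was therefore used to choose the members, and is given below as a description with no test. The comparison of day 11 with day 7 was used only in part, since the rule sets a floor under all 5 late libraries. The comparison of day 2 with day 0 was used in part, since the rule caps the level in all 6 early libraries and leaves out transcripts raised in every irradiated library. Both comparisons were tested over all transcripts. Their values for the members are a description, and the numbers of members called support nothing about the members.

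A lichen thallus is built by a fungus, the mycobiont, which houses a photosynthetic partner, here mainly the green alga Symbiochloris reticulata (the photobiont), with cyanobacteria of the genus Nostoc as a further partner. Dried, frozen thalli from aspen trunks were wetted again and held hydrated throughout. UV-B lamps of 3 W/m2 were on for 80 min each day, which gave 14.4 kJ/m2 daily over a planned course of 14 days. The groups were day 0 (unirradiated, 3 libraries), day 2 (28.8 kJ/m2, 3 libraries), day 7 (100.8 kJ/m2, 2 libraries) and day 11 (158.4 kJ/m2, 3 libraries). No unirradiated thalli of days 2, 7 or 11 were among the samples, so dose, time and the wet state in the chamber cannot be told apart. Polyadenylated RNA of the whole thallus was sequenced, and in such bulk samples more cells of a type and more RNA per cell cannot be told apart.

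UV-B damages DNA directly by joining neighbouring pyrimidine bases, and produces reactive oxygen species. Fungi respond with DNA repair enzymes, including light-driven photolyases, with antioxidant enzymes and with screening pigments. In Lobaria pulmonaria the fungus of the upper cortex is known to form brown melanins under UV-B over days, a slow acclimation beside the fast damage responses. The tables identify transcripts by number and do not pair the numbers with gene names, so no member can be assigned to any of these roles. CPM is not divided by transcript length, so an order of members by CPM is an order by share of counts, not by number of molecules.

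The libraries held 8680745 to 17626099 mycobiont counts and 938418 to 2677845 photobiont counts. The photobiont made up 9.76% to 11.9% of the counts of both partners in the late libraries and 8.34% to 15.9% in the early ones. Reads mapped to neither of these genomes made up 10.9% to 14.0% of the kept reads at day 0, 9.29% to 11.6% at day 2, 10.5% and 10.6% at day 7, and 11.7% to 16.3% at day 11. The part of these values in the results was not tested. The labels do not say whether replicates came from separate thalli beyond calling them biological replicates.

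The members were a substantial part of the fungal counts late and a minor one early. They held 0.720%, 0.698% and 0.701% of all mycobiont counts in the day 0 libraries and 0.415%, 0.748% and 0.779% in the day 2 libraries. In the day 7 libraries they held 6.15% and 7.67%, and in the day 11 libraries 7.91%, 6.37% and 5.22%. The mean share was 0.706% ± 0.0115 over the 3 libraries of day 0 and 0.647% ± 0.202 over the 3 of day 2 (SD). It was 6.91% ± 1.08 over the 2 libraries of day 7 and 6.50% ± 1.35 over the 3 of day 11. The late and early libraries did not overlap, as the choice of members requires. The ranges of days 7 and 11 overlapped, as did those of days 0 and 2. Without the largest member it was 4.24% to 6.97% in the late libraries and 0.408% to 0.738% in the early ones. The median member stood at 91.3 to 159.7 CPM in the late libraries and at 7.19 to 15.0 CPM in the early ones.

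**Figure D1:**
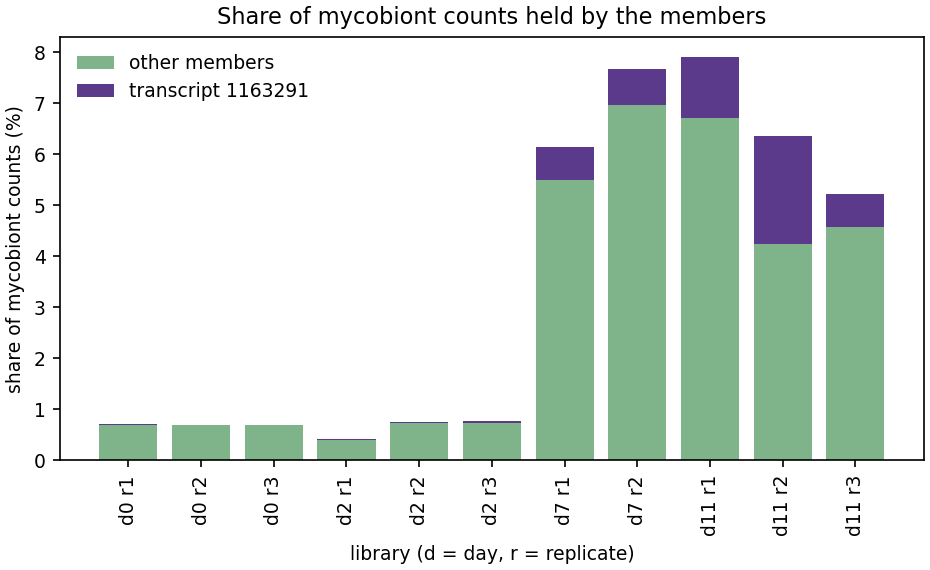
Share of all mycobiont counts held by the 154 members in each library (bars, %), by day and replicate, with the part of the largest member, transcript 1163291, on top. The 5 libraries of days 7 and 11 lie between 5.22% and 7.91%, and the 6 libraries of days 0 and 2 between 0.415% and 0.779%.

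The members' late counts were concentrated in few transcripts. The 10 members with the highest late mean held 45.8% and 49.4% of the members' counts at day 7 and 54.4%, 60.3% and 50.3% at day 11. The same 10 held 15.3% to 16.7% of them at day 0 and 18.1%, 22.2% and 35.3% at day 2. Since the 10 were picked by their late means, a larger late share is favoured, and no change in concentration is shown. By mean late CPM, 14 members were among the 100 highest fungal transcripts and 6 among the 20 highest, and 39 were among the 500 highest. None had been among the 100 highest at day 0, where the rule left these out, or at day 2, and 3 were among the 500 highest on each of these days. The median rank of the members among the 12089 transcripts was 2278 over the late libraries and 7644.5 at day 0.

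The largest member was transcript 1163291. Its level was 187, 96.3 and 110 CPM at day 0, 79.3, 94.3 and 580 CPM at day 2, 6322 and 7413 CPM at day 7, and 13271, 24669.5 and 6868 CPM at day 11. Its mean over the late libraries, 11709 CPM, was the 2nd highest of all fungal transcripts, where it had ranked 1576 at day 0. Day 2 replicate 3 stood above the other early libraries, and day 11 replicate 2 above the other late ones. Its mean was 131 ± 48.7 CPM over the 3 libraries of day 0, 251 ± 285 over the 3 of day 2, 6868 ± 772 over the 2 of day 7 and 14936 ± 9017 over the 3 of day 11 (SD). Day 2 against day 0 gave a log2 fold change of 0.94 (SE 0.76, edgeR adjusted p = 0.435), and -0.59 without day 2 replicate 3. Day 11 against day 7 gave 1.12 on the log2 scale (SE 0.87, edgeR adjusted p = 0.997). Neither passed the test, and its ratio of late to early mean was 61.3.

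Transcript 628184 had the widest gap between the groups, with its lowest late library at 59.7 times its highest early one. It had 2.71, 5.97 and 6.88 CPM at day 0, 5.67, 32.6 and 7.51 CPM at day 2, 1947 and 5220 CPM at day 7, and 5307, 3249 and 2982 CPM at day 11. As counts, day 0 held 40, 112 and 77 reads and day 7 held 19046 and 50332. Its ratio of late to early mean was 366. Day 2 replicate 2 alone was above 10 CPM among the early libraries. Its log2 fold changes were 1.57 for day 2 against day 0 (SE 0.70, edgeR adjusted p = 0.160) and 0.10 for day 11 against day 7 (SE 0.73, adjusted p = 0.998).

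The 14 among the 100 highest had ratios of late to early mean of 3.32 to 366. A pair of them, picked after their values were seen, lie apart from 0 in day 11 against day 7 without passing the test. One had 2581 and 3682 CPM at day 7, and 505, 121 and 1574 CPM at day 11, with 10.3 to 21.1 CPM in the early libraries. All 3 of its day 11 libraries were below both day 7 libraries, but its log2 fold change of -2.09 did not pass the test (SE 0.79, edgeR adjusted p = 0.951). Another had 638 and 639 CPM at day 7, and 2747, 1134 and 2221 CPM at day 11. All its day 11 libraries were above both day 7 libraries, with a log2 fold change of 1.67 (SE 0.89, edgeR adjusted p = 0.971).

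**Figure D2:**
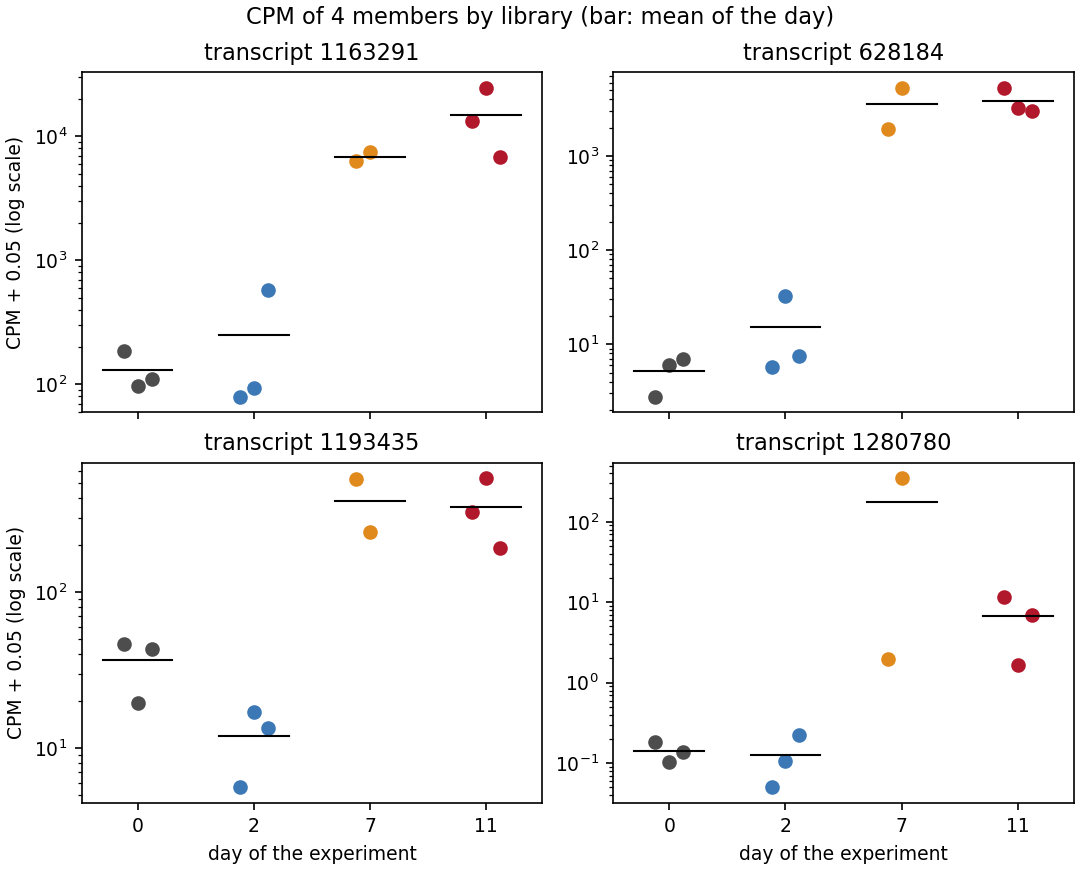
CPM of 4 members by day of the experiment (log axis, with 0.05 added so that a value of 0 can be drawn). Points are libraries and bars are the means of the day. Transcripts 1163291 and 628184 are high in all 5 late libraries, 1193435 is lowest at day 2, and 1280780 is high mainly in 1 day 7 library, at 349 CPM.

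The members covered a wide range of levels and of rises. The mean of the late libraries lay between 4.16 and 11709 CPM, with a median of 115, and the mean of the early ones between 0.0851 and 497 CPM, with a median of 13.4. The ratio of these means had a median of 8.85 (quartiles 4.07 and 19.9). It was at least 2 in 153 of 154 members, at least 4 in 117, at least 8 in 81, at least 16 in 46 and at least 100 in 7. The smallest ratio, 1.998, belonged to a member at 79.4 to 89.8 CPM in the late libraries and 25.1 to 52.8 CPM in the early ones. The largest belonged to transcript 1280780, which is described below.

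Members that were nearly silent early and members that were already well expressed both took part. In 9 members no early library reached 1 CPM, and their late means were 5.10 to 74.2 CPM (median ratio 34.2). In 41 the highest early level was 1 to under 10 CPM, with late means of 4.16 to 260.0 CPM (median ratio 10.6). In 75 it was 10 to under 100 CPM, with late means of 19.5 to 3741 CPM (median ratio 6.78). In 29 it was 100 CPM or more, with late means of 238 to 11709 CPM (median ratio 6.12). The low classes rest on few early counts, which limits the precision of their ratios. The early level is also the divisor of the ratio, so sorting by it favours larger ratios in the low classes. Counts of exactly 0 occurred in 1 to 5 members per early library and in none of the late ones.

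**Figure D3:**
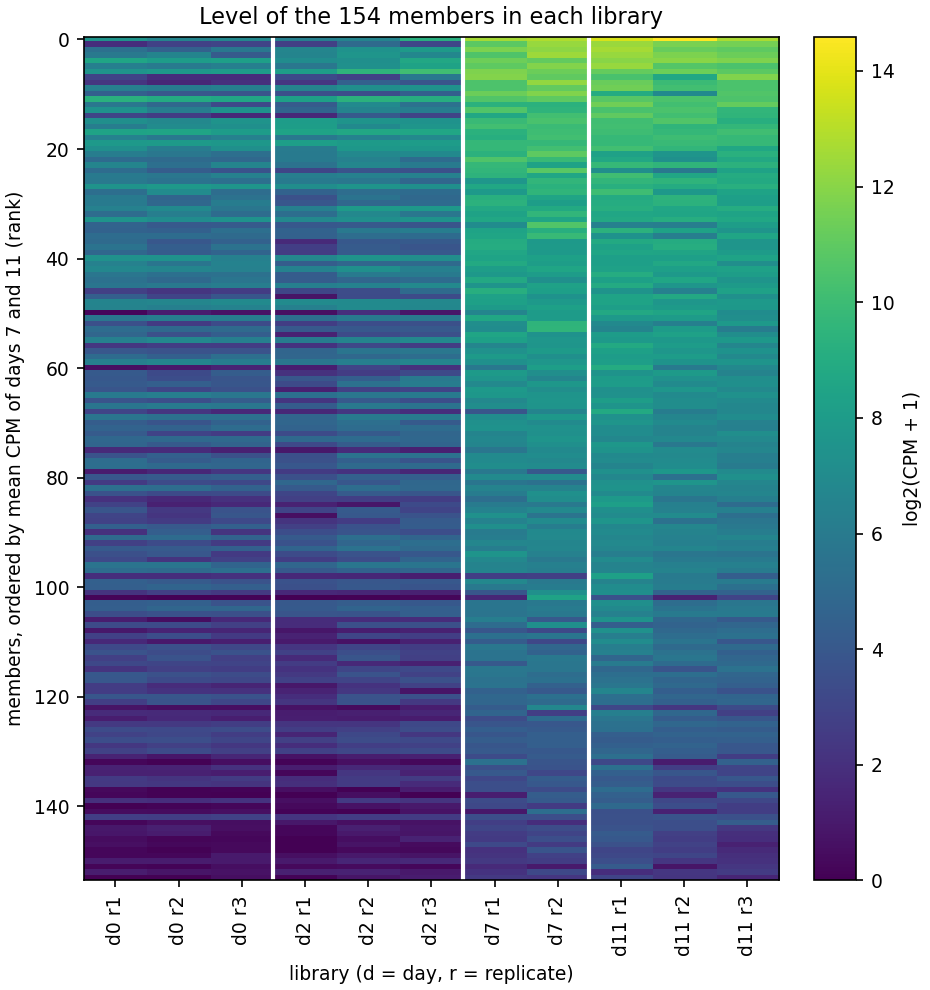
Level of each of the 154 members (rows, ordered by mean CPM of days 7 and 11) in each of the 11 libraries (columns, by day and replicate), as log2(CPM + 1). White lines part the days. The columns of days 7 and 11 are brighter than those of days 0 and 2 in every row, as the choice requires, and the rows differ in how dark they are early.

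The rule sets a cut in a continuum. The member closest to the limit had a lowest late level of 3.28 CPM and a highest early level of 2.18 CPM, a ratio of 1.503. The closest transcript outside had 19.4 and 12.9 CPM, a ratio of 1.497. The ratio was under 2 in 61 members. All conditions on levels were met by 158 transcripts, of which 1 was left out as one of the 100 highest at day 0 and 3 as raised in every irradiated library.

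Not all transcripts that were high late were low at day 2. With day 0 alone as the early group, 612 transcripts outside the 100 highest at day 0 had a lowest late level of at least 1.5 times the highest day 0 level and a late mean of at least 3 CPM. In 157 of them (25.7%) every day 2 library also lay that far under the lowest late library, and the 154 members are among these. In 272 (44.4%) no day 2 library did, and in 183 (29.9%) some did. The median log2 fold change of day 11 against day 0 was 3.20 in the members and 1.64 in the other 458. Both groups were chosen by late levels against day 0, and the members also had to clear day 2. Nothing is read from this difference. For day 2 against day 0 it was 0.03 in the members and 1.20 in the other 458, a difference that the rule sets up.

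The criterion was also read in libraries to which the rule had not been applied. The rule was applied to 10 libraries, and the 11th was then set against the 1.5-fold limit. Without day 0 replicates 1, 2 and 3 in turn, the rule chose 160, 157 and 157 transcripts, of which 152, 152 and 149 passed in the library left out (95%, 96.8% and 94.9%). Over all transcripts tested 9.46%, 10.4% and 14.3% did. Of the 148, 184 and 192 chosen with a day 2 library (replicate 1, 2 or 3) left out, 97.3%, 83.2% and 80.2% passed, against 12.0%, 4.78% and 6.55% of all transcripts. Of the 195 and 173 chosen with day 7 replicate 1 or 2 left out, 79.5% and 89.0% passed, against 4.72% and 5.37% of all. Of the 156, 187 and 181 chosen with day 11 replicate 1, 2 or 3 left out, 98.1%, 82.9% and 85.6% passed, against 6.04%, 5.07% and 4.50% of all. The lowest of these shares, for day 7 replicate 1, had a 95% interval of 73.1% to 84.9% (Clopper-Pearson, over transcripts, which share the library and are not independent). With no factor required, the library left out was on its own group's side of the rest for at least 91.1% of the chosen transcripts in every case, against 19.9% to 31.5% of all transcripts. TMM factors and the filter on low counts were computed once over all 11 libraries, so the library left out had a part in both. In every case the transcripts that passed were all or nearly all members. The shares are therefore a description and no separate support for the members.

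**Figure D4:**
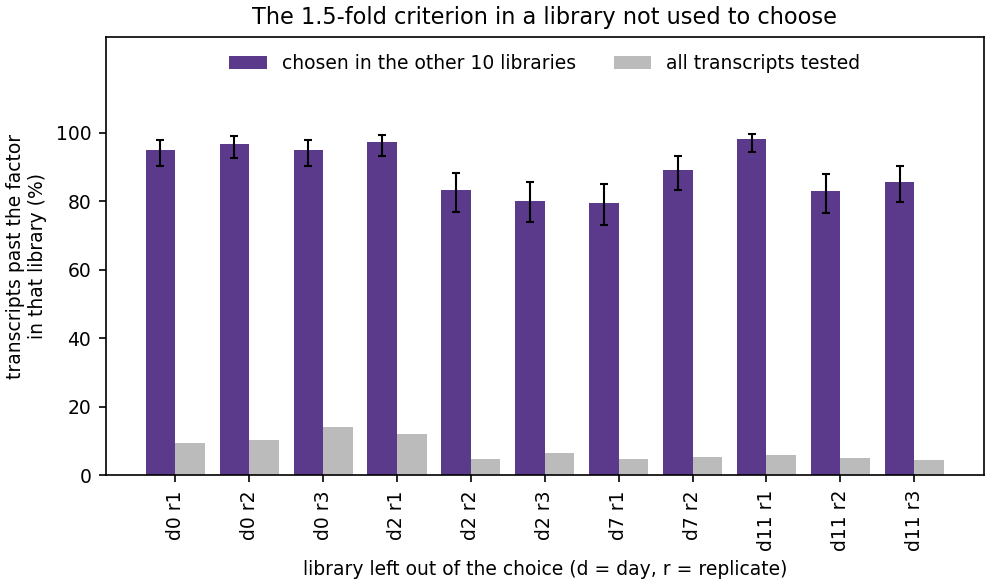
Share of transcripts past the 1.5-fold criterion in a library that was not used to choose them (left bars, with 95% Clopper-Pearson intervals) and share of all 12089 transcripts past it in the same library (right bars), by the library left out. The left bars lie between 79.5% and 98.1%, and the right bars between 4.50% and 14.3%. The intervals treat transcripts as independent, which they are not. TMM factors and the filter on low counts used all 11 libraries.

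Day 2 and day 0 both had to lie under the late libraries, so the size of their difference in the members was limited by the rule. Of the 154, 6 were called higher at day 2 than at day 0 and 1 lower, at an edgeR adjusted p under 0.05 over all transcripts tested. That is 4.55% of the members, where 13.1% of all tested transcripts were called, 8.59% higher and 4.47% lower. Nothing is read from the lower share, also because only 140 of 154 members passed the filter on low counts with these 2 days alone. With nothing left out by the rule, 11 of 158 transcripts were called. On the log2 scale the members' median fold change was 0.03, against -0.03 over all transcripts. Scaled by library totals, which moved the median of all transcripts to -0.45, it was -0.15 in the 122 members then chosen, and 7 were called higher and 6 lower. Over all transcripts that scaling gave 466 higher and 2213 lower (22.2% called). With TMM scaling the log2 fold change lay within 1 either way in 118 members (76.6%), against 80.1% of all transcripts. Every day 2 library was above every day 0 library in 16 members (10.4%, against 18.7% of all transcripts) and below in 17 (11.0%, against 17.9%). Single libraries moved the number of members called, and the number of all transcripts called fell in the same fits. It was 2, 4 or 2 members when day 0 replicate 1, 2 or 3 was left out (958, 593 or 713 of all transcripts, in place of 1579). It was 4 without day 2 replicate 2 (1298 of all) and 2 without day 2 replicate 3 (668 of all). Without day 2 replicate 1 the number of members called rose to 10, all of them higher (1182 of all).

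The label of a rise only after day 2 is set by the rule, which does not keep out a rise at day 2. How many members were called higher at day 2 depended on the cut and on single libraries. The 6 called higher with all libraries stood higher again in the late libraries. Their log2 fold changes of day 2 against day 0 were 0.89 to 2.11 (edgeR adjusted p = 0.00840 to 0.0358), and all day 2 libraries lay above all day 0 libraries in each. The member with the smallest p had 14.5, 12.4 and 12.1 CPM at day 0 and 25.8, 49.3 and 54.8 CPM at day 2. It then had 166 and 245 CPM at day 7 and 310.0, 203 and 175 CPM at day 11, above all its earlier libraries. Its log2 fold change of day 2 against day 0 was 1.74 (SE 0.31, adjusted p = 0.00840). Another of the 6 was the member with the 3rd highest late mean, at 98.5, 176 and 243 CPM at day 2, against 40.3, 22.3 and 57.4 CPM at day 0. It reached 2018 to 6211 CPM in the late libraries.

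The only member called lower at day 2 had 19.0, 27.7 and 32.4 CPM at day 2, against 82.8, 49.6 and 87.2 CPM at day 0, and 148 to 468 CPM in the late libraries. Its day 2 libraries were the lowest of all 11. Transcript 1193435 had the lowest log2 fold change of day 2 against day 0 among the 143 members averaging at least 50 counts in a library. Its level was 46.4, 19.5 and 43.4 CPM at day 0, 5.57, 16.9 and 13.4 CPM at day 2, 528 and 242 CPM at day 7, and 324, 536 and 192 CPM at day 11. All 3 day 2 libraries were below all 3 day 0 libraries. Its log2 fold change, -1.59 (SE 0.54), did not pass the test (edgeR adjusted p = 0.0799). It passed with library totals as the scaling (adjusted p = 0.0328) and with DESeq2 (adjusted p = 0.0145), in a range of 0.0145 to 0.175 over 18 alternatives. These 2 settings called 22.2% and 21.3% of all transcripts, in place of 13.1%. The transcript was also picked by its value in this comparison.

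Between day 11 and day 7 no difference of a member passed the test, and fold changes lay on both sides of 0. Both days had to lie above the early libraries, so the values of the members are a description. None of all 12089 transcripts was called between the 2 days by edgeR (0%), and the smallest adjusted p of a member was 0.557. At an unadjusted p under 0.05 there were 20 members (13.0%), 7 higher and 13 lower at day 11, against 5.15% of all transcripts. DESeq2 called 8 members, 4 higher and 4 lower, and 72 of all transcripts. On the log2 scale the members' median fold change was 0.03, against -0.01 over all transcripts (-0.09 and -0.12 with library totals). Single values were above 1 in 15 members and below -1 in 15, and within 1 in 124 (80.5%, against 90.5% of all transcripts). Every day 11 library was above every day 7 library in 12 members (7.79%, against 9.48% of all transcripts) and below in 12 (7.79%, against 10.3%). Without day 7 replicate 1, which leaves a lone day 7 library that is assumed to vary like the other days, 2 members were called lower, as were 13 of all transcripts, with 1 higher.

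Transcript 1280780 had the lowest log2 fold change of day 11 against day 7 among members with a mean of 50 or more counts, and it rests on 1 library. It had 2, 1 and 1 reads at day 0, 0, 1 and 2 at day 2, 19 and 3364 at day 7, and 116, 12 and 70 at day 11. As levels these were 0.135, 0.0533 and 0.0894 CPM at day 0, 0 to 0.175 CPM at day 2, 1.94 and 349 CPM at day 7, and 11.6, 1.60 and 6.96 CPM at day 11. Day 11 replicate 2 lay below both day 7 libraries, and the other day 11 libraries lay between them. The day 11 against day 7 difference was -4.69 on the log2 scale (SE 1.44, edgeR adjusted p = 0.951, with 0.0389 to 1 over 18 alternatives). Without day 7 replicate 2 its direction turned (1.79, adjusted p = 0.959), and without day 7 replicate 1 it was called (-5.68, adjusted p = 0.0411), as it was by DESeq2 (adjusted p = 0.0389). Its ratio of late to early mean, 872, is the largest of all members and comes mostly from day 7 replicate 2.

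The opposite extreme had 2.71, 2.77 and 3.31 CPM at day 0, 2.21, 2.14 and 1.31 CPM at day 2, 5.42 and 5.70 CPM at day 7, and 308, 62.4 and 19.6 CPM at day 11. Every day 11 library was above both day 7 libraries, and the day 11 libraries differed widely among themselves. Its day 11 against day 7 value was 4.55 on the log2 scale (SE 1.04, edgeR adjusted p = 0.606). In 93 members (60.4%) the log2 fold changes of day 2 against day 0 and of day 11 against day 7 were both within 1. Over all transcripts 75.1% had both within 1. In 13 members (8.44%, against 2.32% of all transcripts) day 2 was within 1 and day 11 was 1 or more above day 7. In 12 (7.79%, against 2.64%) day 2 was within 1 and day 11 was 1 or more below. In 23 (14.9%, against 8.68%) day 2 was already 1 or more above day 0, and in 13 (8.44%, against 11.2%) it was 1 or more below. Nothing is read from these shares. The rule limits both differences, and the standard errors of the members were larger at the median than over all transcripts.

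**Figure D5:**
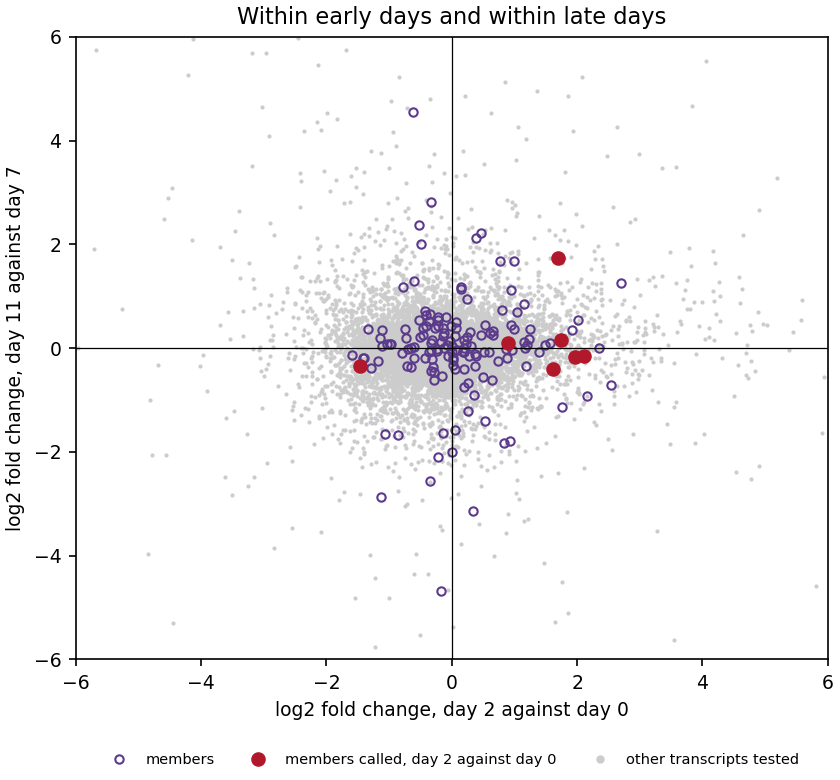
Log2 fold change of day 11 against day 7 (vertical) against that of day 2 against day 0 (horizontal) for the 154 members (rings, with the 7 called at day 2 filled) and the other transcripts tested (grey points, 126 of which lie outside the plotted range of 6). The members lie around 0 on both axes, with 93 within 1 on both.

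The members did not move evenly within a day, and the same libraries stood out for many of them. Day 11 replicate 1 was the highest late library in 75 of 154 members, where it was the highest in 17.6% of all transcripts. Within day 11 it was above replicate 2 in 120 members and above replicate 3 in 130. The median differences were 0.62 and 0.80 on the log2 scale, against 0.01 and -0.00480 over all transcripts. Day 11 replicate 3 was the lowest late library in 52 members (20.5% of all transcripts) and the highest in 3 (20.8% of all). Among the early libraries, day 2 replicate 1 was the lowest in 81 of 154 members, against 20.5% of all transcripts, and day 2 replicates 2 and 3 were the highest in 43 and 39, against 12.6% and 17.7% of all transcripts. The median difference of day 2 replicate 1 from replicate 2 was -0.80 and from replicate 3 -0.81 (log2). At day 0 the medians between replicates were within 0.14 of 0. At day 7 replicate 2 was above replicate 1 in 89 members and 50.6% of all transcripts, and the median of replicate 1 minus replicate 2 was -0.22.

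The spread between replicates was larger at the median in the members than over all transcripts, which was not tested. The edgeR estimate of the biological coefficient of variation, which takes all 4 days together, had a median of 0.419 in the members and 0.296 over all transcripts. The highest day 11 library was a median of 2.28 times the lowest (quartiles 1.64 and 3.66), and up to 21.6 times. For day 2 against day 0 the standard errors of the log2 fold changes had a median of 0.48 in the members and 0.31 over all transcripts. For day 11 against day 7 the median was 0.52 in the members and 0.34 over all transcripts.

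The comparisons of late with early days chose the members, so only their sizes are given. The median log2 fold changes of the members were 3.07 for day 7 against day 0 and 3.20 for day 11 against day 0. Against day 2 they were 3.05 for day 7 and 2.99 for day 11. The comparisons with the same early day share that day's libraries.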

How the data were processed

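The authors deposited raw counts per transcript and library for each partner, 1 column per library, and a table of reads kept and mapped, also as counts of reads per the file headers. Tools listed in the submitters' processing notes are edgeR, HTSeq 0.5.4, HISAT2, Trimmomatic 0.39 and FastQC 0.11.8. For builds, gene models and counting strand, details were not given in the sources used here. Overlapping transcripts and near-identical copies are therefore uncertain. The 15607 mycobiont transcripts were filtered with filterByExpr by day (12089 kept) and scaled by TMM in edgeR 4.0.16 (R 4.3.3). One quasi-likelihood fit (glmQLFit, robust, day as the design) over all 11 libraries gave the tests. P-values were adjusted by Benjamini-Hochberg over all transcripts tested, called under 0.05. Standard errors are the absolute log2 fold change over the square root of F. DESeq2 1.42.0 was an alternative. Intervals of shares treat transcripts as independent draws. The procedure was tested on simulated data.

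The members and the comparisons were chosen with earlier results of these data known. Printed IDs follow a rule: the highest late mean, the largest gap between late and early libraries, and, with a mean of 50 or more counts, the lowest log2 fold change of day 2 against day 0 and of day 11 against day 7. A few others are described without ID and were picked after their values were seen. P-values set a difference between days against the spread between libraries of the same day, estimated over all days together. Whether that spread is between separate thalli is not known from the labels. No 2 libraries held identical values. Replicate numbers were not used as pairs, since same-numbered libraries did not deviate together in every case.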

Additional observations from a re-analysis of the deposited data

How the results depend on the processing

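Membership counts were 93 with a factor of 2 and 257 with a lower factor than 1.5. Under the other 18 alternatives, which include leaving out each library, they were 122 (library totals) to 195, and 117 to 154 of the members were chosen again. Of the members, 7 were called between day 2 and day 0. The count was 13 with library totals (7 higher, 6 lower), 15 with DESeq2 (11 higher, 4 lower; 21.3% of all transcripts, 1565 higher and 1012 lower), 16 and 2 in the lists chosen with the lower and the higher factor, 11 with nothing left out, and 2 to 10 when libraries were left out in turn. For day 11 against day 7 the count was 8 with DESeq2 (72 of all transcripts) and 0 to 2 when libraries were left out, with 14 of all transcripts in the fit without day 7 replicate 1 that gave 2. Scaling by library totals moved the median over all transcripts to -0.45 for day 2 against day 0 and to -0.12 for day 11 against day 7. The members chosen under that scaling had medians of -0.15 and -0.09 (122 members), in place of 0.03 and 0.03. The members' median log2 level in single libraries had an SD of 0.404 between replicates. That SD is not the error of a median fold change and does not judge this shift. Leaving out day 2 replicate 1 or 2 gave a median of 0.24 or -0.18 for day 2. Of all transcripts 2679 were called with library totals for day 2, 466 of them higher, in place of 1579 with 1039 higher. The replicate block left 3 members called for day 2, with 1055 of all transcripts (8.73%) in place of 1579. It left none for day 11 against day 7, with 1 of all transcripts. Replicate numbers correlated between -0.0769 and 0.386. Of 11 libraries, 5 were closest to one of their own number, which gives no basis for pairing. With the 2 days alone, 140 of 154 members passed the filter for day 2 and 5 were called, with 1093 of all 11624 transcripts (9.40%). Transcript 1280780 was called for day 11 against day 7 with DESeq2 and without day 7 replicate 1. Low early counts, 7 over 6 libraries in the lowest case, limit the precision of the ratios.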

Other observations

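The same rule, applied to the table of the green-algal photobiont, found 43 of 9862 transcripts (0.436%). They held 0.245% to 0.297% of the photobiont counts at day 0, 0.249% to 0.392% at day 2, 1.18% and 1.94% at day 7, and 1.93%, 1.48% and 1.01% at day 11. Their ratio of late to early mean CPM had a median of 4.42 and reached 142. The tables have different depths, and the shares of the partners that met the rule were not compared by a test. In the mycobiont the mirrored rule, for a fall after day 2, was met by 210 transcripts (1.74%).

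One transcript met every condition on levels but was left out because it was among the 100 highest at day 0. It stood at 888 to 1035 CPM at day 0, 1755 to 2102 CPM at day 2 and 3565 to 5987 CPM in the late libraries, so that each later group lay above the one before it.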
